A study of Phaseolus vulgaris with 36 samples.

Results

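The comparison concerned pods of G12873, the wild accession of common bean in the series, at pod filling (stage R8) against the stage at which the first pods had appeared (R7). It used 6 of the 36 libraries of the series, all those labelled G12873 at stage 8 and stage 7, with 3 libraries at R8 and 3 at R7. The plants were untreated, and the labels give G12873 as wild-type and fully dehiscent, which means that its mature pods open. The other accessions, ICA Bunsi, SXB405 and MIDAS, are labelled domesticated, the first pair of intermediate dehiscence and MIDAS indehiscent, and their own steps from R7 to R8 are used here only beside that of G12873. Each accession is 1 line, so wild status, full dehiscence and any other trait of G12873 cannot be told apart. Total RNA of pods was sequenced as single reads of 75 bases, the tissues within a pod were not separated, and in such bulk samples fewer cells of a type and less RNA per cell cannot be told apart.

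A bean pod is a modified leaf folded into 2 valves joined along sutures. While the pod elongates, its cells divide, expand and lay down walls, and a band of lignified cells at the sutures and a fibre layer in the valves form the parts that later pull a dry pod open. During filling the seeds take up sugars and amino acids and store them, and the valves shift towards supplying the seeds. Wild beans shatter to scatter their seed, and much of that was lost in domestication.

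The R7 libraries were unequal, which bears on every result below. Estimated counts summed to 7987032, 10311947 and 8978164 in R8 replicates 1, 2 and 3, and to 2032506, 2285287 and 10764525 in R7 replicates 1, 2 and 3. A set of 10 abundant genes that rise and fall together across the 36 libraries took 22.7, 4.61 and 31.3% of the counts at R8, against 86.5, 69.9 and 7.32% at R7. Outside that set R7 replicate 1 held 275179 counts and R7 replicate 2 held 687090, whereas R7 replicate 3 held 9976502 and the R8 libraries held 6175858, 9836809 and 6169746. Genes with at least 10 counts numbered 17420, 18714 and 17653 in the R8 libraries, against 3732, 9417 and 19268 in the R7 libraries. A count of 3, the limit that a count of 0 allows, corresponds to 0.347, 0.185 and 0.311 CPM (counts per 1000000, scaled between libraries) at R8, and to 9.96, 3.03 and 0.178 CPM at R7, so that in R7 replicate 1 a gene under about 10 CPM was not detectable with any certainty. These limits cover counting error only.

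**Figure D1:**
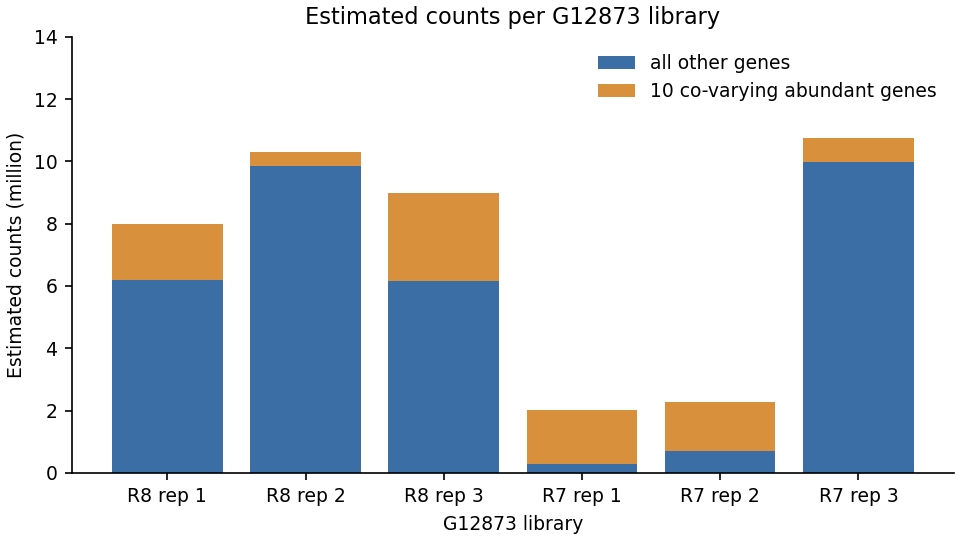
Estimated counts (in units of 1000000, bars from 0) in each G12873 library, R8 left and R7 right, split into the 10 co-varying abundant genes and all other genes. R7 replicates 1 and 2 are short bars made up mostly of the 10 genes (86.5 and 69.9%), while R7 replicate 3 stands with the R8 libraries.

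The R7 libraries also differed in the levels of genes that all of them held. The labels give all 3 as R7, and whether replicates 1 and 2 hold pods of the same age as replicate 3 cannot be told from them, which bears on every R8 against R7 value below. Over the 3487 genes with at least 10 counts in all 6 libraries, the 10 genes left out, log2 CPM of R7 replicate 3 correlated with R7 replicates 1 and 2 at r = 0.411 to 0.414, and replicates 1 and 2 with each other at 0.736. R7 replicate 3 was nearer to the R8 libraries, at 0.680 to 0.736, than to its own 2 replicates. The R8 libraries correlated among themselves at 0.911 to 0.947 and with the later R9 libraries of mature pods at 0.870 to 0.980. Set against the R7 libraries of the domesticated accessions, R7 replicate 3 gave 0.743 to 0.902 for ICA Bunsi, 0.876 to 0.898 for SXB405 and 0.786 to 0.847 for MIDAS. R7 replicate 1 gave 0.352 to 0.657, 0.309 to 0.319 and 0.328 to 0.395 in the same order, and R7 replicate 2 gave 0.363 to 0.607, 0.325 to 0.341 and 0.301 to 0.356. These correlations are across genes, which are not independent replicates, and describe the libraries. The limit of 10 counts keeps mostly genes that were high in R7 replicate 1, where only 3732 genes reached it. Counting error is also larger in R7 replicates 1 and 2. How far depth and this choice of genes lower their values was not tested.

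**Figure D2:**
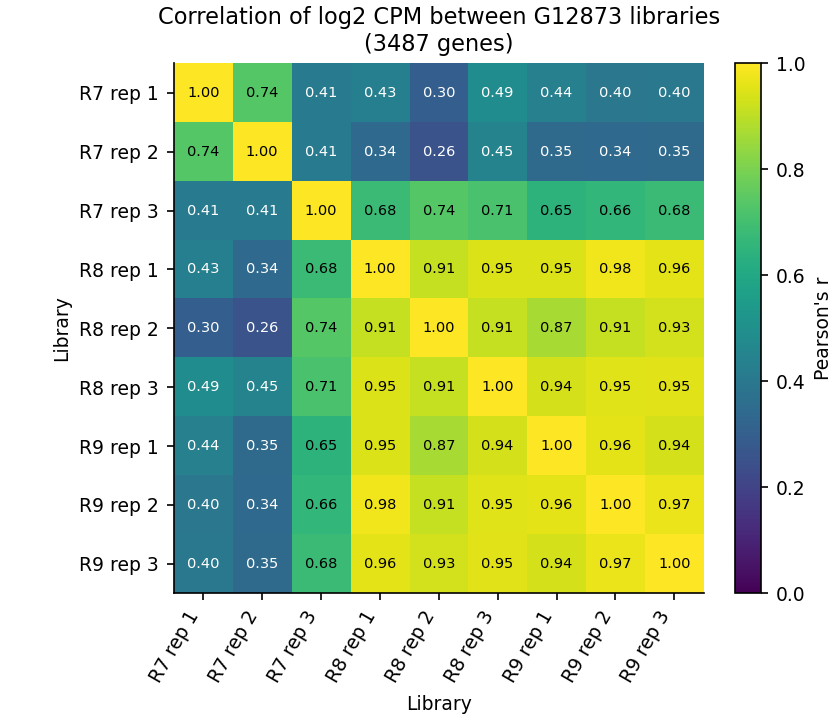
Pearson's r of log2 CPM between each pair of G12873 libraries over 3487 genes, on a colour scale from 0 to 1. The 6 libraries of R8 and R9 form 1 block of values from 0.87 to 0.98, R7 replicate 3 lies at 0.65 to 0.74 from that block, and R7 replicates 1 and 2 lie at 0.26 to 0.49 from it.

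About equal numbers of genes were called higher and lower at pod filling in G12873, and the falls were larger by their median than the rises. Of 20966 genes tested, 5170 (24.7%) passed edgeR's quasi-likelihood test (Benjamini-Hochberg adjusted p under 0.05 and a change of at least 2-fold), and such genes are called here. The 2488 genes called higher at R8 made up 11.9% of those tested, and the 2682 called lower made up 12.8%. The median change was 1.73 on the log2 scale among the risers, and the fallers were lower by a median log2 change of -2.32. At 8-fold or more stood 439 risers (17.6%) and 887 fallers (33.1%), against 7.56% of all genes tested whether called or not. The median over all genes tested was 0.08. Sizes in this fit were also taken for genes called under other choices of R7 libraries. Their medians were 2.03 for risers and 2.24 for fallers called with R7 replicate 3 alone, and 1.01 and 1.95 without it. For genes called under all 3 choices they were 2.13 and 2.74. As all these sizes include the 3 R7 libraries, they cannot tell how far the larger falls rest on any of them.

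In the mature pod (R9) the medians of risers and fallers lay near those at R8. The risers' median level was 24.9, 21.9 and 19.5 CPM in the R8 libraries, against 6.64, 3.03 and 7.96 CPM in the R7 libraries, and 26.2, 24.4 and 20.6 CPM in the R9 libraries. The fallers had medians of 2.20, 2.03 and 2.49 CPM at R8, against 9.96, 14.2 and 9.89 CPM at R7, and 1.90, 2.23 and 2.23 CPM at R9. The calls themselves fixed the direction between R8 and R7, while the R9 libraries had no part in that contrast.

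The share of genes without overlap between the stages differed between risers and fallers, but library depth enters that contrast. Among the 2488 risers, 2239 (90.0%) had all 3 R8 libraries above all 3 R7 libraries, a pattern found in 21.7% of all genes tested. R7 replicate 3 on its own lay below every R8 library for 2435 risers (97.9%, against 33.9% of all genes). In R7 replicates 1 and 2, however, 792 and 919 risers had no count at all, against 52 in R7 replicate 3, and only 326 (13.1%) had at least 10 counts in all 6 libraries. A gene without a count in a shallow R7 library lies below every R8 library that has a count, whatever its true level. Depth alone thus favours the pattern in risers. Both patterns are also drawn from the values that made the calls, and are no separate support for them.

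Of the 2682 fallers, 1381 (51.5%) had all R8 libraries below all R7 libraries, against 9.93% of all genes. R7 replicate 3 lay above every R8 library for 2429 of them (90.6%, against 35.7%). For the other 253 fallers R7 replicate 3 did not, and their median levels were 8.78, 3.20 and 14 CPM at R8, against 63.1, 105 and 4.22 CPM at R7. These 253 were thus called lower on R7 replicates 1 and 2, with R7 replicate 3 in or under the R8 range. As many as 613 and 427 fallers had no count in R7 replicates 1 and 2, against 6 in R7 replicate 3. Such genes could not have all R8 libraries below all R7 libraries. The shares without overlap therefore cannot tell whether the R7 libraries carried risers more evenly than fallers. Among all genes tested the pattern was likewise rarer in this direction, at 9.93% against 21.7%.

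The step was therefore fitted again with each kind of R7 library. With R7 replicate 3 alone at R7, which assumes that it varies like the libraries of the other groups, 3694 genes were called, 1371 higher and 2323 lower. Without R7 replicate 3 the count was 6142, of which 3831 were higher and 2311 lower, and the median over the 20966 genes was 0.55 on the log2 scale in that fit, against 0 with R7 replicate 3 alone. In all 3 fits 904 risers (36.3%) and 1009 fallers (37.6%) of the main call were called the same way. Genes called in opposite directions by the 2 partial fits were few, 1 higher with R7 replicate 3 alone and lower without it, and 26 the other way round.

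For the 10738 genes with at least 10 counts in R7 replicates 1 and 2 together, the log2 changes of both partial fits correlated at r = 0.542 (Spearman's rho = 0.542) and had the same sign for 68.4%. Both fits use the same R8 libraries, so the value describes how far the R7 libraries matter and is no measure of repeatability.

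**Figure D3:**
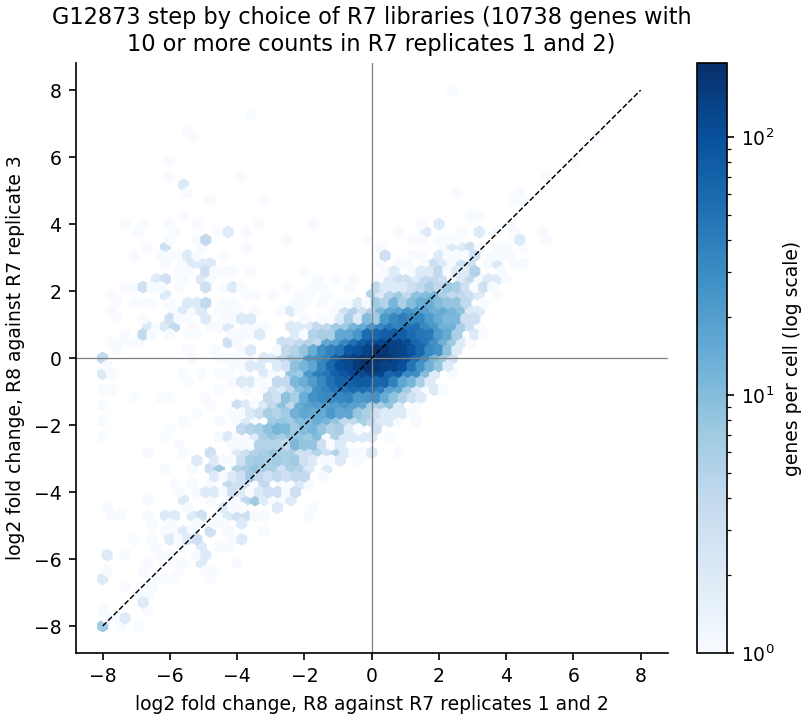
Log2 fold change of each of 10738 genes, R8 against R7 replicates 1 and 2 (horizontal) and against R7 replicate 3 (vertical), as a count of genes per cell on a log colour scale, with values beyond 8 drawn at 8 and equality as a dashed line. Most genes lie in 1 cloud along the line, and a separate scatter at upper left is low against replicates 1 and 2 only.

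Among single genes, the steadiest change in the step was that of Phvul.005G157600 on chromosome 5. Work on pod shattering in bean knows this identifier as PvMYB26, related to MYB26 of Arabidopsis thaliana, a transcription factor that turns on secondary wall thickening in anthers so that they can open. The files pair no names with identifiers, and the name comes from that work. Its level was 0.578, 0.616 and 0.415 CPM in the R8 libraries, against 49.8, 66.7 and 59.2 CPM in the R7 libraries. The groups were far apart, and the 3 R7 libraries were close together in spite of holding 15, 66 and 997 counts. Its log2 fold change was -6.74 (SE 0.53, edgeR adjusted p = 8.53e-10), which placed the gene at rank 1 of 20966 by p. At R9 it remained low, with 0.732, 0.297 and 0.743 CPM.

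The fall of Phvul.005G157600 was larger in G12873 than in each domesticated accession. In ICA Bunsi its level was 0.565, 3.02 and 0.419 CPM at R8, against 1.27, 1.24 and 1.6 CPM at R7 (log2 fold change 0.03). SXB405 had 1.05, 0.420 and 0.617 CPM at R8, against 2.09, 1.95 and 0.948 CPM at R7, where the groups overlapped although the step was called at -1.30 (edgeR adjusted p = 0.0403). MIDAS had 24.9, 23.2 and 18.7 CPM at R8, against 12.3, 12.5 and 9.66 CPM at R7, without overlap, and its log2 fold change of 0.96 was under the 2-fold threshold and had an adjusted p of 0.0705. The step of G12873 minus that of the other accession was -6.77 (SE 0.73, adjusted p = 1.43e-06) for ICA Bunsi, -5.44 (SE 0.73, adjusted p = 3.38e-05) for SXB405 and -7.69 (SE 0.66, adjusted p = 1.00e-08) for MIDAS.

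**Figure D4:**
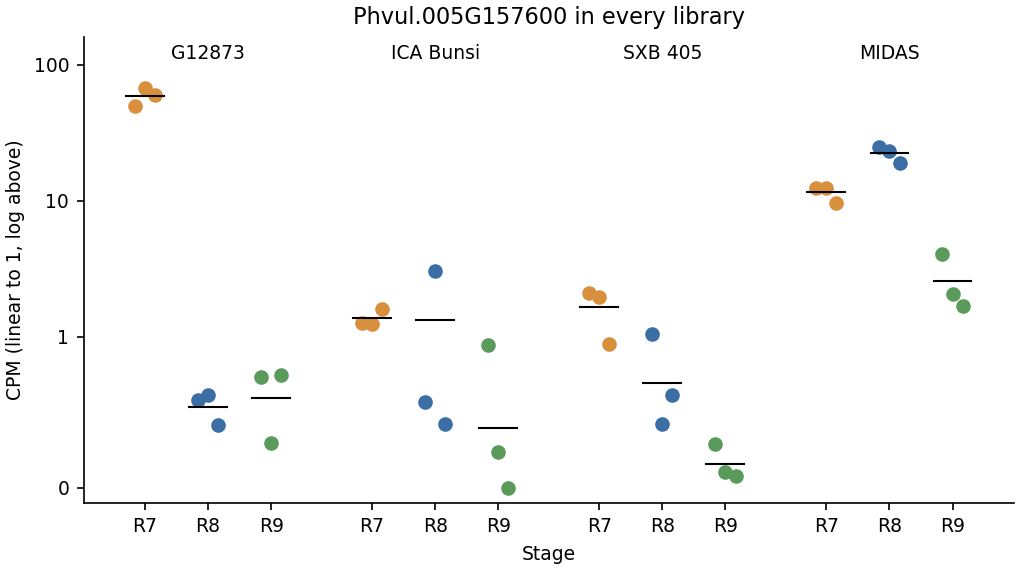
CPM of Phvul.005G157600 in every library of the series (points) with the mean of each group of 3 (lines), by accession and stage, on an axis linear up to 1 and logarithmic above. In G12873 the 3 R7 libraries lie at 49.8 to 66.7 CPM and all R8 and R9 libraries below 1 CPM, while in MIDAS the R8 libraries lie above the R7 libraries.

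Another gene that published work ties to pod shattering moved less. Phvul.003G252100, known there as PvPdh1, is related to Pdh1 of soybean, which encodes a dirigent protein acting in the lignin-rich inner layer of the pod wall and promotes the twisting of dry pods. It stood at 18.8, 12.1 and 14.8 CPM at R8, against 3.32, 6.07 and 6.66 CPM at R7, and the groups did not overlap. Its change of 1.29 on the log2 scale was called (SE 0.42, edgeR adjusted p = 0.0201), and with R7 replicate 3 alone it was 1.16 with an adjusted p of 0.125. The call was also lost without R7 replicate 2 (1.26), without R7 replicate 3 (1.52) and without R8 replicate 1 (1.11). The R7 values of replicates 1 and 2 rest on 1 and 6 counts, against 112 in R7 replicate 3. None of the differences from the steps of ICA Bunsi (0.41, SE 0.54), SXB405 (1.11, SE 0.54) and MIDAS (0.35, SE 0.52) was called.

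Phvul.002G271000, known as PvIND, is a homologue of INDEHISCENT of Arabidopsis thaliana, which forms the opening zone of that plant's fruit. It gave 8, 12 and 3 counts at R8 (0.924, 0.739 and 0.311 CPM), against 0, 0 and 13 counts at R7, the last 0.772 CPM. Both zeros lie under limits of 9.96 and 3.03 CPM, so a difference was not detectable from those libraries. The fitted change was 0.04 on the log2 scale (SE 0.79, edgeR adjusted p = 0.985). Over 14 alternatives it ran from -0.71 to 5.72 and was never called, so its size is not known from these libraries.

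The largest rises and falls among the 720 called genes with at least 10 counts in every library and no overlap between the stages are described next. That lack of overlap was a condition of the choice. Phvul.010G144300 on chromosome 10 had the largest rise, with 12552, 985 and 7915 CPM at R8, against 388, 262 and 218 CPM at R7. R8 replicate 2 was far below the other R8 libraries but still above every R7 library, as the choice required. The log2 fold change was 4.64 (SE 0.92, edgeR adjusted p = 0.000383), and it was 5.0 with R7 replicate 3 alone (adjusted p = 0.0289) and 3.95 without R8 replicate 1. The level at R9 was 25504, 14377 and 24646 CPM. The step was larger in G12873 than in 2 of the others, with a log2 difference of 3.63 for ICA Bunsi (adjusted p = 0.0478) and of 5.50 for MIDAS (adjusted p = 0.00131), while the difference of 0.60 from SXB405 was not called (adjusted p = 0.836).

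Phvul.006G039800 on chromosome 6 followed, with 1065, 361 and 386 CPM at R8, against 59.8, 11.1 and 21.2 CPM at R7. R7 replicates 1 and 2 rested on 18 and 11 counts. The rise was 4.53 on the log2 scale (SE 0.61, edgeR adjusted p = 3.84e-06) and 4.8 with R7 replicate 3 alone (adjusted p = 0.000478). It was 5.12 without R7 replicate 1 and 3.84 without R8 replicate 1, and called in both. The gene was also called higher in ICA Bunsi (5.45) and SXB405 (6.86), and in MIDAS its change was 1.06 and not called (adjusted p = 0.136).

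Both of the largest falls rested on the shallow libraries. Phvul.003G120550 on chromosome 3 had 2.54, 2.09 and 2.70 CPM at R8, against 49.8, 3510 and 4.46 CPM at R7. R7 replicate 2 was far above the others and R7 replicate 3 just above the R8 libraries. The log2 fold change of -8.93 (SE 1.68, edgeR adjusted p = 0.000618) became -3.12 without R7 replicate 2 (adjusted p = 0.0299) and -0.90 with R7 replicate 3 alone (adjusted p = 0.572).

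Phvul.L002390, on a scaffold not placed on a chromosome, had 1.5, 2.03 and 1.97 CPM at R8, against 1162, 117 and 2.79 CPM at R7. Here R7 replicate 1 was the highest and R7 replicate 3 again stood next to the R8 libraries. The log2 fold change of -7.76 (SE 2.12, edgeR adjusted p = 0.00752) became -4.85 without R7 replicate 1 (adjusted p = 0.0646), -8.38 without R7 replicate 3 and -0.61 with R7 replicate 3 alone (adjusted p = 0.898).

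**Figure D5:**
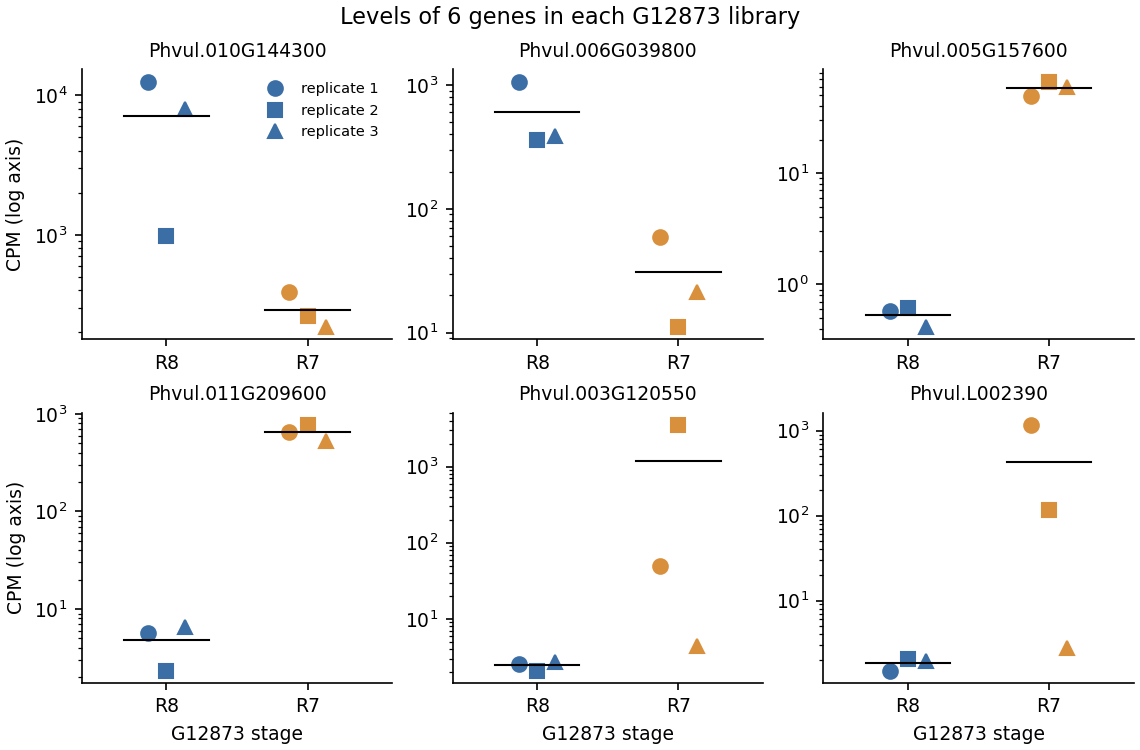
CPM (log axes) of 6 genes in each G12873 library, R8 left and R7 right, with 1 symbol per replicate and a line at the mean of 3. Phvul.005G157600 and Phvul.011G209600 are high in all 3 R7 libraries, whereas Phvul.003G120550 and Phvul.L002390 are high at R7 in replicates 1 and 2 and within a few CPM of R8 in replicate 3.

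The direction of the abundant set also depended on the R7 libraries. Its leading members are Phvul.L001990 and Phvul.003G000408, whose share of a library can be so large that counts are given here. Phvul.L001990 had 807264, 208327 and 1310330 counts at R8, against 616888, 803311 and 335426 counts at R7, and Phvul.003G000408 had 599763, 162507 and 926482 at R8, against 623758, 530453 and 296989 at R7. The counts overlapped, in libraries of very unequal depth. After scaling, the log2 fold changes were -3.57 (SE 1.69, edgeR adjusted p = 0.111) and -3.90 (SE 1.69, adjusted p = 0.0811), neither called. Without R7 replicate 3 Phvul.003G000408 was called lower, at -4.48 (adjusted p = 0.0428). With R7 replicate 3 alone they took the other sign, 1.99 and 1.70. Of the 10 genes 2 were called lower and 0 higher by edgeR, against 12.8 and 11.9% of all genes tested, with log2 fold changes of -5.68 to -2.98 and a median of -4.36. The 2 called, Phvul.002G203700 (-5.42) and Phvul.002G028400 (-5.68), are named because they are the only members called, a choice made after their values were seen.

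The step of G12873 was set beside those of the other accessions, in which 23.2% (ICA Bunsi), 25.2% (SXB405) and 16.8% (MIDAS) of the genes tested were called in either direction. Among the 2488 risers of G12873, 1151 (46.3%) were called higher and 30 (1.21%) lower in ICA Bunsi, against 11.9 and 11.2% of all genes. In SXB405 it was 1163 (46.7%) higher and 43 (1.73%) lower, against 10.6 and 14.5% of all genes. In MIDAS it was 242 (9.73%) higher and 190 (7.64%) lower, against 7.5 and 9.3% of all genes. The median log2 change over the risers was 1.06 for ICA Bunsi, 1.03 for SXB405 and 0.01 for MIDAS. Among the 2682 fallers, ICA Bunsi had 1065 (39.7%) called lower, SXB405 1430 (53.3%) and MIDAS 484 (18.0%). Over all genes these shares were 11.2, 14.5 and 9.3%. Called higher were 53 (1.98%), 38 (1.42%) and 184 (6.86%) of the fallers in the same order, against 11.9, 10.6 and 7.5% of all genes. The medians over the fallers were -0.97, -1.34 and -0.29. Across all 20966 genes the log2 change of G12873 correlated with that of ICA Bunsi at r = 0.493 (rho = 0.487), of SXB405 at 0.503 (rho = 0.521) and of MIDAS at 0.10 (rho = 0.075). ICA Bunsi and SXB405 correlated with each other at 0.699. These are descriptions over genes in 1 fit, with no sample in common. They were not recomputed with other choices of the G12873 R7 libraries.

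Tests of the difference itself gave 1726 genes (8.23%) whose step in G12873 differed from that in ICA Bunsi, 653 with the larger value in G12873 (3.11%) and 1073 with the smaller (5.12%). For SXB405 it was 1366 (6.52%), 626 larger (2.99%) and 740 smaller (3.53%), and for MIDAS 5469 (26.1%), 2788 larger (13.3%) and 2681 smaller (12.8%). With R7 replicate 3 alone at R7 of G12873 these counts were 596, 519 and 3766, and without R7 replicate 3 they were 4641, 4176 and 6714. The 10-gene set took more than 50% of the counts in 1 R7 library of ICA Bunsi (72.9%) and 1 R8 library of MIDAS (53.8%) too, and its part in these differences was not tested beyond leaving such libraries out. The 3 differences share the G12873 libraries, so their calls are not independent. In all 3 of them 101 genes had the larger value in G12873, of which 72 were also called higher in its own step, and 309 had the smaller value, of which 249 were called lower in it. These sets were not recomputed with R7 replicate 3 alone or without it.

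Differences were named among called genes with a mean of at least 10 counts in each of the 4 groups compared and no overlap between the R8 and R7 libraries of G12873. That lack of overlap was thus a condition of the choice. Among the genes that met these limits, Phvul.011G209600 on chromosome 11 had the most negative difference against each of the domesticated accessions. Its level was 5.66, 2.34 and 6.54 CPM at R8 in G12873, against 654, 768 and 530 CPM at R7, with all 3 R7 libraries close together. The log2 fold change was -7.08 (SE 1.09, edgeR adjusted p = 3.3e-05), and -6.82 with R7 replicate 3 alone (adjusted p = 0.00036). In MIDAS the order was the reverse, 1647, 1522 and 1281 CPM at R8, against 202, 144 and 99.3 CPM at R7. In ICA Bunsi it was 805, 2578 and 329 CPM at R8, against 47.2, 136 and 98.9 CPM at R7, and in SXB405 520, 17.8 and 245 CPM at R8, against 67.2, 71.9 and 57.7 CPM at R7, where SXB405 R8 replicate 2 fell below the R7 libraries. The differences were -10.80 (SE 1.42) for ICA Bunsi, -9.07 (SE 1.37) for SXB405 and -10.40 (SE 1.41) for MIDAS, with edgeR adjusted p of 4.95e-05, 0.000256 and 1.79e-05.

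Under the same limits on counts and overlap, a different gene had the largest positive difference against each accession. Phvul.011G110800, the first against ICA Bunsi, had 20.0, 78.4 and 12.2 CPM at R8 in G12873, against 3.32, 1.01 and 2.20 CPM at R7. R8 replicate 2 was the highest, and the R7 values of replicates 1 and 2 were 1 count each. In ICA Bunsi it had 2.83, 2.61 and 2.85 CPM at R8, against 6.33, 5.53 and 6.06 CPM at R7, and the difference of steps was 5.26 (SE 0.87, edgeR adjusted p = 0.00041). Without R8 replicate 2 of G12873 the step was 2.94 on the log2 scale, against 4.15 with it, and the difference 4.05.

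Phvul.009G170800 on chromosome 9, the first against MIDAS, had 290.5, 152 and 295 CPM at R8 in G12873, against 6.64, 5.06 and 3.92 CPM at R7. Its log2 fold change was 5.78 (SE 1.27, edgeR adjusted p = 0.00131). In MIDAS it had 2.95, 6.69 and 10.4 CPM at R8, against 5.62, 2.71 and 178 CPM at R7, where 1 R7 library was far above the others. At R9 the same gene had 542, 393 and 340 CPM in G12873 and 1923, 2389 and 2433 CPM in MIDAS. The difference of steps between these accessions was 9.0 (SE 1.63, adjusted p = 0.000315). The gene was also called higher in ICA Bunsi (5.85) and SXB405 (8.48). The differences of G12873 from their steps (-0.08 and -2.71) were not called.

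Phvul.011G183600, the first against SXB405, had 262, 125 and 109 CPM at R8 in G12873, against 9.96, 5.06 and 14.9 CPM at R7. Its log2 fold change was 3.86 (SE 1.24, edgeR adjusted p = 0.0205), and 3.43 with R7 replicate 3 alone (adjusted p = 0.193). It was 4.69 without R7 replicate 3, and the call was lost without R7 replicate 2 (3.55) and without R8 replicate 1 (3.36). The difference from SXB405 was 6.50 (SE 1.71, adjusted p = 0.0235) and, with R7 replicate 3 alone, 6.08 (adjusted p = 0.183). Without R7 replicate 2 it was 6.17 (adjusted p = 0.0722), and 7.33 without R7 replicate 3. SXB405 had 0.0952, 0.700 and 2.77 CPM at R8 (1, 10 and 36 counts), against 16.6, 3.67 and 2.53 CPM at R7. These groups overlapped, and the step of -2.64 was not called (edgeR adjusted p = 0.0957). SXB405 R7 replicate 1 was far above the others. In MIDAS the gene was called higher (4.01, adjusted p = 0.0206), and the difference from MIDAS (-0.15) was not called. In ICA Bunsi the change was 0.26, and that difference was not called either (adjusted p = 0.157).

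Called genes were spread over all chromosomes, as their identifiers give them. Risers made up 10.4% of the genes tested on chromosome 10 and 13.1% on chromosome 4, the lowest and highest of the 11 chromosomes, and fallers 10.8% on chromosome 8 to 14.5% on chromosome 4. Of the risers, 17.1% had as next gene tested another riser and 9.88% a faller, and of the fallers 16.4% were followed by a faller and 9.65% by a riser, where 11.9% of all genes tested were risers and 12.8% fallers. The longest run of risers was of 8 genes on chromosome 4, Phvul.004G157900 to Phvul.004G158900, with log2 fold changes of 1.23 to 3.97. In it 2 genes were also called with R7 replicate 3 alone. In SXB405 5 of the 8 were called higher (10.6% of all genes), in MIDAS 2 (7.5%), and in ICA Bunsi 1 was called higher (11.9%) and 1 lower (11.2%).

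The longest run of fallers was of 7 genes on chromosome 2, Phvul.002G090500 to Phvul.002G090588, at -6.84 to -4.26. All 7 were positive with R7 replicate 3 alone, at 0.40 to 3.92, and none was called in that edgeR fit. The first of them had 3.35, 0.431 and 10.7 CPM at R8, against 69.7, 1416 and 0.297 CPM at R7, and all 7 were higher in R7 replicates 1 and 2 than in R7 replicate 3. Reads of near-identical genes may be shared among such neighbours, which makes their separate values uncertain.

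Risers were found more often among genes of high level and fallers among genes of low level. In 5 classes of equal size by mean CPM over the 36 libraries, risers made up 6.13, 9.42, 11.8, 12.8 and 19.2% from the lowest class to the highest, and fallers 13.2, 18.7, 12.3, 9.99 and 9.68%. With R7 replicate 3 alone the risers' share ran from 2.69 to 11.5% and the fallers' peaked likewise in the second class, at 15.9%. The longest transcript had a median length of 1427 bases among risers and 1782.5 bases among fallers, against 1630 bases over all genes tested. That contrast in length depended on the R7 libraries: it was 1551 against 1635 bases with R7 replicate 3 alone and 1397 against 2202 bases without it.

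Presence and absence were called on R7 replicate 3 and the R8 libraries, with R7 replicates 1 and 2 given beside them. No count in R7 replicate 3 and at least 10 in each R8 library was the pattern of 32 genes, of which 25 had no count in any R7 library. The opposite, no count in any R8 library and at least 10 in R7 replicate 3, was the pattern of 68 genes, of which 5 had counts in all 3 R7 libraries. The highest level among the 68 was 8.08 CPM in R7 replicate 3, under the limit of 9.96 CPM that R7 replicate 1 allows. At the level of transcripts, 27561 were tested, with 2055 called higher and 1702 lower. Among the 4279 genes with 2 or more tested transcripts, 4 had one transcript called higher and another called lower.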

How the data were processed

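Pod RNA libraries of 36 samples in 12 groups of 3 were made with a TruSeq kit and read as single reads of 75 bases, per the labels' protocols. Each deposited table lists 36995 transcripts with an estimated count and a TPM value, a length-scaled abundance. The authors deposited the estimated counts without normalization. The authors' TPM values, scaled to 1 total per sample, entered no test. kallisto, limma and edgeR are named in the submitters' processing notes. The sources used here do not give build, annotation, trimming or strand, so reads of antisense partners and near-identical genes are uncertain.

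Estimated counts were summed to 27433 genes by identifier and rounded. edgeR 4.0.16 (R 4.3.3) used TMM scaling, filterByExpr (minimum count 10, minimum total 15), which left 20966 genes, and a robust quasi-likelihood fit over all 36 samples. Genes were called at an adjusted p (Benjamini-Hochberg, all tested genes) under 0.05 with a log2 change of 1 or more either way. CPM uses TMM-scaled library sizes, and log2 CPM a prior count of 2. Standard errors come from the F statistics, and differences of steps are contrasts of the same fit. The fit was run on simulated counts in which the libraries of a group shared their means. Differences among the R7 libraries beyond depth and random spread were thus not simulated. The co-varying set holds those of the 50 most abundant genes with a Spearman correlation over 0.9 with the first. Totals ranged from 2032506 to 15202576 counts over the series. Nothing says that replicates came from separate plants, so p-values measure the spread between these samples, which may be technical. No 2 replicates of G12873 R8 or R7 agreed within sampling noise.

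Gene names were sought in a RefSeq table of 34165 genes (P. vulgaris v2.0), which matched 0 identifiers, so planned gene lists, including seed markers, were not run and no sequences are shown. Named genes were the 2 largest rises and 2 largest falls among called genes with at least 10 counts in all 6 libraries and no overlap, the largest positive and negative difference of steps per accession among called genes with a mean of at least 10 counts in each of the 4 groups and no overlap in G12873, the 2 leading genes of the set and 3 candidates from published work. Members, lists and this rule were chosen with earlier results of these data known. Alternatives used DESeq2 1.42.0, limma 3.58.1, other filters and scaling, a replicate block, single replicates left out and transcripts.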

Additional observations from a re-analysis of the deposited data

Results flagged for a closer look

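The steps of these named genes differed between G12873 and another accession by a test of the difference itself (log2 scale, G12873 minus the other accession, edgeR adjusted p over all genes tested). Phvul.005G157600 differed by -6.77 from ICA Bunsi, -5.44 from SXB405 and -7.69 from MIDAS. Phvul.011G209600 differed by -10.80, -9.07 and -10.40 in the same order. Phvul.011G110800 differed by 5.26 from ICA Bunsi, by 2.80 from SXB405 (adjusted p = 0.0353) and by 4.06 from MIDAS (adjusted p = 0.000754). Phvul.010G144300 differed by 3.63 from ICA Bunsi and 5.50 from MIDAS, and Phvul.006G039800 by 3.47 from MIDAS (adjusted p = 0.00163). Phvul.009G170800 differed by 9.0 from MIDAS and Phvul.011G183600 by 6.50 from SXB405. The differences of Phvul.009G170800 from MIDAS, Phvul.011G110800 from ICA Bunsi and Phvul.011G183600 from SXB405 were not called with limma. Those of Phvul.005G157600, Phvul.010G144300 and Phvul.006G039800, and of Phvul.011G110800 from SXB405 and MIDAS, were not followed through the alternatives.

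Phvul.003G120550 differed by -8.87 from SXB405 (adjusted p = 0.0251) and Phvul.L002390 by -8.54 from MIDAS (adjusted p = 0.0172). For these 2 genes the fall in G12873 was lost with R7 replicate 3 alone.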

How the results depend on the processing

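The count of 5170 genes stayed within 1.5 times under 15 of 17 alternatives, and was 1529 with limma-voom and sample quality weights and 1920 when only the 6 samples were fitted. Quality weights were 0.789, 0.278 and 0.162 for R7 replicates 1, 2 and 3. The shallowest of the 3 thus had the highest of these weights, and the deep R7 replicate 3 the lowest. Leaving out 1 library in turn gave 4001 to 6142 calls for the step, 782 to 4641 for the difference from ICA Bunsi, 800 to 4176 from SXB405 and 4476 to 6714 from MIDAS. The share of calls that were higher was 48.1% in the main fit, 62.4% without R7 replicate 3, 37.1% with R7 replicate 3 alone and 25.3% with limma. For ICA Bunsi the difference counted 887 genes with limma, 1126 with the replicate block, 596 with R7 replicate 3 alone and 631 without the 8 libraries in which the abundant set takes over 50% of the counts, an alternative chosen after seeing the data. For SXB405 the same settings gave 357, 760, 519 and 627. For MIDAS limma gave 3009, and no other setting moved the count by over 1.5 times. DESeq2 shifted the median log2 change of all genes by -0.11. Same-numbered G12873 libraries had deviations correlating at 0.133, -0.052 and -0.161, and only replicate 1 correlated best with its own number. As the R7 libraries differ so much among themselves, this check cannot exclude that the numbers pair. With the replicate block the step had 4137 calls. None of the called genes named by the rule above changed direction. Genes named outside that rule were not followed through all alternatives. The 7 fallers of the run on chromosome 2 took the other sign with R7 replicate 3 alone, where none was called. Over all genes, 2 called in the step were called the other way without R7 replicate 3 and 2 without the 8 libraries, as were 8 in the difference from MIDAS without the 8 libraries.

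Phvul.005G157600, Phvul.011G209600, Phvul.010G144300 and Phvul.006G039800 kept their calls in the step under all 15 alternatives run for them, Phvul.005G157600 at -6.94 to -6.60. Phvul.003G252100 lost its call in 7 of 15 (1.11 to 1.52, adjusted p 0.0193 to 0.397), Phvul.L002390 and Phvul.011G183600 in 6 each and Phvul.003G120550 in 3. Phvul.009G170800 and Phvul.011G110800 lost theirs with limma (adjusted p = 0.147 and 0.154). Among the differences followed through the alternatives, limma lost Phvul.009G170800 from MIDAS (6.51, adjusted p = 0.0761) and Phvul.011G110800 from ICA Bunsi (4.33, adjusted p = 0.0908). That of Phvul.011G183600 from SXB405 was lost in 5 of 14 alternatives. The causes were not tested. Depth in R7 replicates 1 and 2 limits what can be said of genes under about 10 and 3 CPM.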
